A study of Homo sapiens with 6 samples.

Results

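The genes described here encode the nuclear part of the oxidative phosphorylation machinery, from complex I to the ATP synthase. Members were taken by name from the gene column of the deposited comparison table: names that begin with NDUFA, NDUFB, NDUFC, NDUFS, NDUFV, UQCR, ATP5, COX4I, COX5, COX6, COX7 or COX8, together with SDHA, SDHB, SDHC, SDHD and CYC1. Assembly factors with names that begin with NDUFAF, pseudogenes and antisense names were left out. This gave 90 of the 24239 genes in the 6 libraries, with 40 in complex I, 4 in complex II, 10 in complex III, 17 in complex IV and 19 in complex V. The grouping follows the gene names, so that NDUFA4, now placed in complex IV, stands with complex I. ATP5S and ATP5SL carry the ATP synthase prefix but are not classical subunits, and their current symbols are DMAC2L and DMAC2. They were kept in complex V by name. A further 2 names are readthroughs with a neighbour, ATP5J2-PTCD1 and NDUFC2-KCTD14.

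The RNA came from 3 control and 3 heat shock samples of HEK293, an adherent line of human embryonic kidney cells, cultured at 37°C. An aliquot of cells was moved to a tube at passaging, and the heat shock group then spent 30 minutes at 45°C in a water bath, which the control group did not. Total RNA was depleted of ribosomal RNA and sequenced as 1 library a sample, and the labels give no collection time while the text of the study places it at 30 minutes after the heat shock. Nothing in the labels states that the samples of a group came from separate cultures beyond the word triplicate, so p-values measure the spread between these samples, which may be technical.

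Complexes I to IV pass electrons from NADH and succinate through ubiquinone and cytochrome c to oxygen, and complexes I, III and IV pump protons across the inner mitochondrial membrane. The ATP synthase, complex V, uses the proton gradient to make ATP. All complexes except complex II mix subunits made from nuclear genes with subunits made from mitochondrial DNA, and the nuclear genes are known as a group of housekeeping genes with binding sites for NRF1 and for the ETS factor GABP in many of their promoters.

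The stretches just before the start of the gene are shown first, because NRF1 and GABP sites are what these promoters are known for. RefSeq promoters (GRCh38.p14, 250 bases before to 50 bases after the start of each gene) were matched for 71 of the 90 genes. The NRF1 letters GCATGCGC, read on both strands, stood in 13 of these promoters, or 18.3%, and in 3.27% of all 27305 promoters. The ETS letters CCGGAAG stood in 19, or 26.8%, against 10.7% of all promoters, and the YY1 letters AAGATGGC in 11, or 15.5%, against 3.03%. The letters GAANNTTC, which are only a part of a heat shock element, were found in 4, or 5.63%, against 6.87%. The ETS letters end in the AAG with which the YY1 letters begin and hold the GAA that opens GAANNTTC, so matches can overlap. NRF1 matches can overlap their own reverse complement, as in SDHD. A match is a description of the sequence, not a binding site. In all, 33 of the 71 promoters held at least 1 of the first 3 motifs, so that most held none, and 6 held both the NRF1 and the ETS letters. One promoter for each complex is shown, with the 150 bases before the start on the strand of the gene and the NRF1 or ETS letters, on either strand, in capitals. The positions are chr19:1383757-1383906 (plus strand) for NDUFS7, chr11:112086723-112086872 (plus) for SDHD, chr19:1605463-1605612 (minus) for UQCR11, chr2:97645912-97646061 (plus) for COX5B and chr21:25735055-25735204 (minus) for ATP5J.
NDUFS7: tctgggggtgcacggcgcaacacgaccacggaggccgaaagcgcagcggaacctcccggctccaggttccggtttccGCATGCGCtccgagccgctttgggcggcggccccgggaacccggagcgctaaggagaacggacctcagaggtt
SDHD: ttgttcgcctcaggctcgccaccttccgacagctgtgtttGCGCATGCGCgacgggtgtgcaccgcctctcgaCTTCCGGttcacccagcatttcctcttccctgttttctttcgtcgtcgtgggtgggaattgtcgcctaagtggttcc
UQCR11: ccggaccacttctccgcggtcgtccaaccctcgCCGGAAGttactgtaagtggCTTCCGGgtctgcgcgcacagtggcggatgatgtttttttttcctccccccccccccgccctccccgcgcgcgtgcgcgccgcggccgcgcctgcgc
COX5B: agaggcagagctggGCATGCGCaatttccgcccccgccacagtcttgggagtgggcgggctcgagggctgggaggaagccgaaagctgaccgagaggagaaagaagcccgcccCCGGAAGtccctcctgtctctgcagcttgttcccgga
ATP5J: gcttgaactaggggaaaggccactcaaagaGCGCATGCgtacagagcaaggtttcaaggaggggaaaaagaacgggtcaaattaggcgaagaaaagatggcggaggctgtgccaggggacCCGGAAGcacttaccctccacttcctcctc

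The deposited values are FPKM, fragments scaled by transcript length and by the number of mapped fragments, and they were summed over the transcripts of each gene. Counts of fragments were not used here, and depth could be read only in relative terms, from coverage over FPKM: the deepest library stood at 2.03 times the shallowest. Most abundant genes of a library were scaled together by 1 factor. This common factor, the median ratio over the 983 genes that exceeded 10 FPKM in every library, was 0.948, 0.439 and 0.967 in controls 1 to 3 and 2.15, 2.34 and 0.492 in heat shock replicates 1 to 3. Control 2 and heat shock 3 therefore stood apart from the other libraries of their groups. Values divided by this factor are called scaled FPKM, and 63 of the 983 genes were members. As a check of the labels, the cochaperone gene DNAJB1 had 7.32, 4.84 and 9.18 FPKM in control libraries and 120.9, 116.2 and 34.0 FPKM after heat shock. The intermediate filament and kidney lineage genes known for HEK293 cells (VIM, KRT8, KRT18, PAX2, NEFL and NEFM) all had a mean above the minimum of 1 FPKM. PAX2 was low in single libraries, at 0.320 to 4.26 FPKM. Of the 6 markers of other cell types only COL1A1 was tested, at 3.23 to 4.16 FPKM.

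Of the 90 genes, 83 had a mean of at least 1 FPKM and entered the tests. They were among the abundant RNAs of the cells: 33 had a mean of 100 FPKM or more and 10 had a mean under 10 FPKM. The median subunit gene had 60.6, 26.0 and 54.8 FPKM in control libraries and 138, 153 and 30.3 FPKM after heat shock. In 77 of the 83 genes heat shock 1 and 2 both lay above all controls, and in 76 genes heat shock 3 lay below controls 1 and 3. The groups therefore overlapped for nearly all of the genes. The common factor of the abundant genes had this same order over the libraries. The share of all genes with this order was not counted, so it is not shown to be particular to the subunit genes. In these bulk samples, a change in the RNA of each cell and a change in the share of cells that hold it cannot be told apart.

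**Figure D1:**
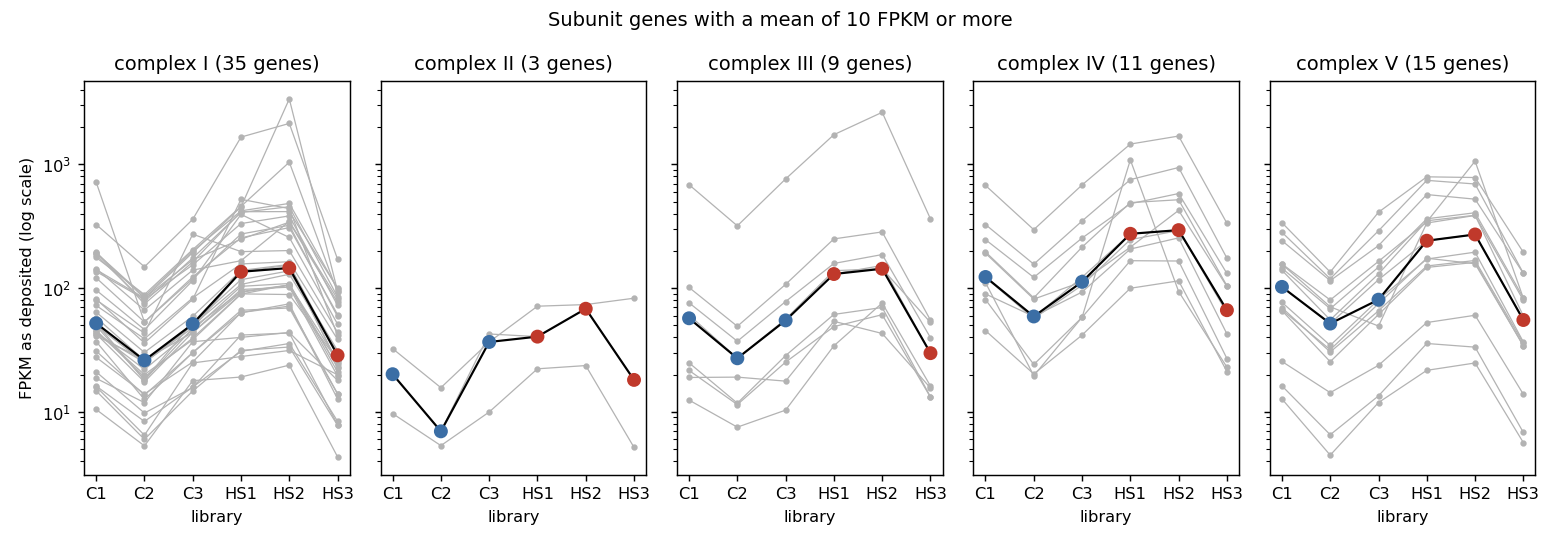
FPKM as deposited (log axis) of the 73 subunit genes with a mean of 10 FPKM or more, by complex, in controls 1 to 3 (C1 to C3) and heat shock replicates 1 to 3 (HS1 to HS3). Each grey line is 1 gene and the large points are the median of the complex, blue for controls and red for heat shock. The lines run nearly parallel, with control 2 and heat shock 3 low and heat shock 1 and 2 high in complexes I, III, IV and V.

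On FPKM as deposited, no subunit gene was called. The mean log2 value was higher after heat shock in 82 of 83 genes and lower in ATP5L2. It was also higher in 9503 of all 13021 genes tested and in 963 of the 983 abundant genes. The median difference of the members on log2(FPKM + 1) was 0.86, against 0.45 over all genes tested and 0.86 over the abundant genes. At an adjusted p under 0.05 (limma, Benjamini-Hochberg), 0 of 83 members and 0.023% of all genes passed, and the lowest adjusted p of a member was 0.711. At an unadjusted p under 0.05, 0 members were higher, with 2.08% of all genes, and 0 were lower, with 1.63%. All heat shock libraries lay above all controls in 2 members, SDHB and UQCRC2, against 3.69% of all genes, and below all controls in 0 members, against 2.25%.

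These counts depended on which libraries were kept. Without heat shock 3, 69 of 83 members were higher at an unadjusted p under 0.05, against 39.6% of all genes, and 0 at an adjusted p under 0.05, the lowest being 0.0793 (limma, Benjamini-Hochberg). Without control 2 alone, 0 members passed an unadjusted p under 0.05, and the lowest adjusted p of a member was 0.978 (limma, Benjamini-Hochberg). Without both control 2 and heat shock 3, 58 of 83 members were called higher, against 12.5% of all genes. The libraries left out were picked by their factor after the values were seen, so this count is not independent evidence of a rise. The share of the abundant genes that passed was not counted in these fits. The counts are therefore not shown to be particular to the subunit genes.

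Once each library was divided by the common factor, the subunit genes lay close to the median abundant gene, on which the factor is centred and which includes 63 of them. The median difference on log2(scaled FPKM + 1) was 0.0081, against -0.21 over all genes tested and 0.0030 over the abundant genes, so that the scaling moved the median of all genes by 0.66 and the direction of a member depends on it. With factors over the tested genes above 0 FPKM in every library in place of the abundant ones, the median of the members was 0.286, against -0.003 over all genes. Of the 83 genes, 45 were higher in mean and 38 lower, 61 lay within 0.25 of no difference, and 0 had a rise of more than 1 on the log2 scale. Among the abundant genes 500 were higher and 483 lower, and among all genes tested 3676 were higher and 9345 lower. The median was -0.0086 in complex I, 0.13 in complex II, 0.037 in complex III, 0.0012 in complex IV and 0.023 in complex V. At an adjusted p under 0.05 (limma, Benjamini-Hochberg), 0 members and 0% of all genes were called. At an unadjusted p under 0.05, 1 member (UQCRC2) was higher, against 0.73% of all genes, and 0 were lower, against 2.49%. The heat shock libraries lay above all controls in 2 members, ATP5E and UQCRQ, against 2% of all genes, and below all controls in 1, NDUFA9, against 5.37%.

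**Figure D2:**
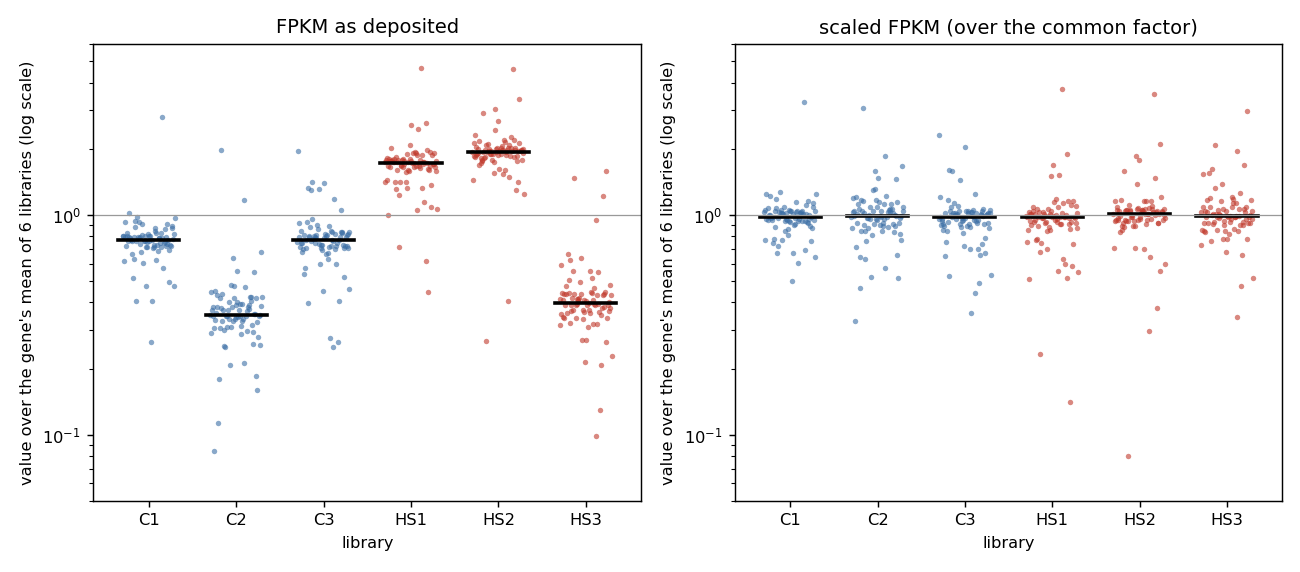
Value of each of the 83 tested subunit genes in each library over its own mean of the 6 libraries (log axis), for FPKM as deposited (left) and for scaled FPKM (right). Points are genes, with those listed at 0 not drawn, and black bars are medians over all 83 genes. The medians run from 0.351 in control 2 to 1.94 in heat shock 2 as deposited and from 0.974 to 1.01 after scaling.

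In 48 of the 83 genes, or 57.8%, the highest scaled FPKM was less than 1.5 times the lowest, while 24 genes had a ratio of 2 or more or a value of 0. Among the members above 10 FPKM in all libraries the ratio was under 1.5 in 40 of 63, or 63.5%, near the 54.7% (538 of 983) of all abundant genes. The steadiest were chosen after their values were seen. COX5A, a subunit of cytochrome c oxidase, had 123, 58.1 and 122 FPKM in control libraries and 275, 294 and 63.0 FPKM after heat shock. After scaling, its controls were 130, 132 and 127 and its heat shock libraries 127, 126 and 128. The scaled values of COX5A thus differed by a ratio of 1.05 at most, and the groups overlapped. NDUFS5, an accessory subunit of complex I, had scaled values of 204, 195 and 206 in control libraries and 195, 207 and 200.5 after heat shock. ATP5A1, the alpha subunit of the ATP synthase, had 73.3, 69.2 and 67.7 against 70.0, 71.4 and 72.9. In both genes the groups overlapped. In control 2, all of the ATP5A1 value came from 1 assembled transcript of 1932 nucleotides. With annotated transcripts alone, ATP5A1 had scaled values of 70.07, 0 and 69.4 against 70.16, 71.3 and 73.6, without overlap. With fragments over 1 length per gene they were 59.9, 59.3 and 56.6 against 58.0, 59.0 and 60.0, and the groups overlapped.

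**Figure D3:**
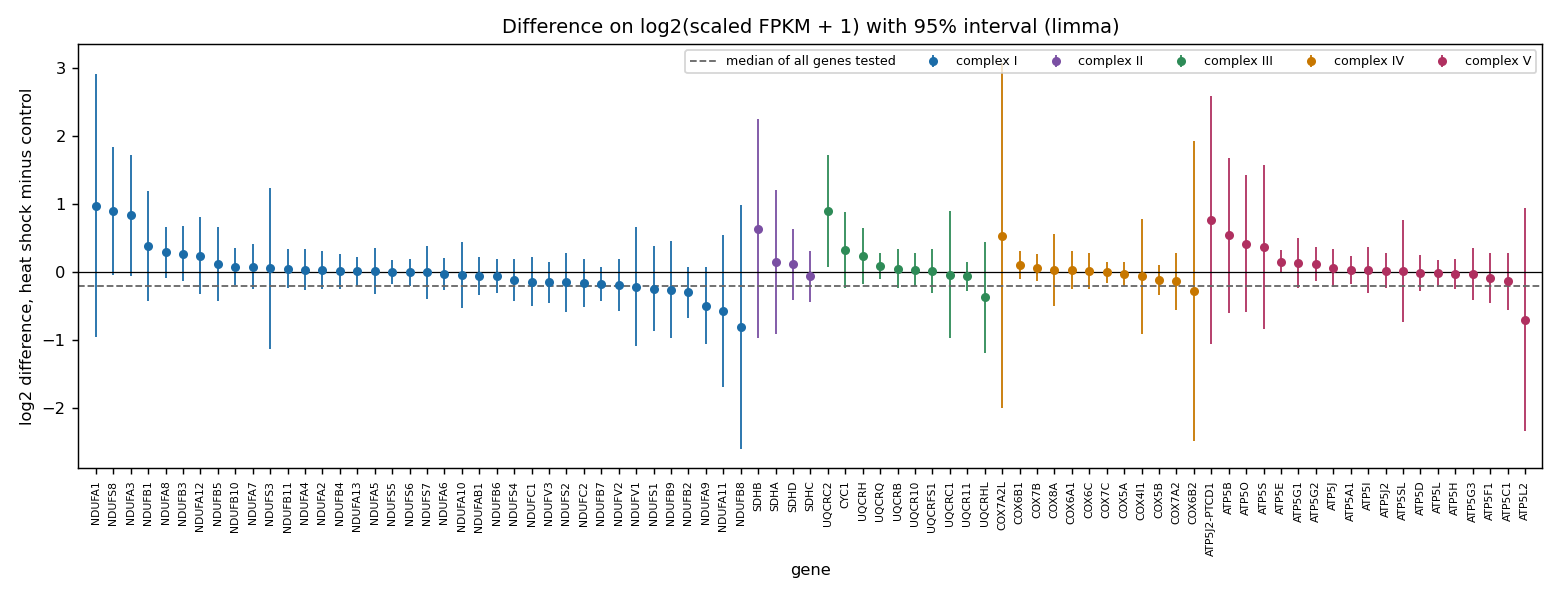
Difference on log2(scaled FPKM + 1), heat shock minus control, of the 83 tested subunit genes with the 95% interval of the limma fit, ordered within each complex. The dashed line is the median of all genes tested, at -0.21. The intervals of 82 genes include 0, and that of UQCRC2 runs from 0.068 to 1.71.

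In complex I, which takes electrons from NADH, 38 genes were tested. The most abundant was NDUFA3, an accessory membrane subunit, with 326, 149 and 360 FPKM in control libraries and 1662, 2143 and 171 FPKM after heat shock. Its scaled FPKM was 344, 338 and 372 in control libraries and 771, 915 and 347 after heat shock. Heat shock 1 and 2 were high and heat shock 3 lay among the controls, and the log2 difference of 0.83 ± 0.36 (SE, n = 3 and 3) had an adjusted p of 0.913 (limma, Benjamini-Hochberg). NDUFA1, another small membrane subunit, had the highest difference of the complex. Its FPKM was 193, 82.9 and 194 in control libraries and 453, 3380 and 94.6 after heat shock. Only heat shock 2 was high, at a scaled FPKM of 1444 beside 189 to 210 in the other 5 libraries, and the difference was 0.97 ± 0.79 (SE). NDUFB8 had the lowest difference, -0.81 ± 0.73 (SE), and here a control stood out. Its scaled FPKM was 758, 121 and 122 in control libraries and 127, 137 and 120 after heat shock.

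These single values came with short assembled transcripts. Cufflinks had added 153 assembled transcripts to 50 of the 90 genes, many shorter than the annotated one. In NDUFA1, 1 assembled transcript of 167 nucleotides held 2995 of the 3380 FPKM of heat shock 2, beside an annotated transcript of 486 nucleotides. In NDUFB8, one of 215 nucleotides held 653 of the 718 FPKM of control 1. In NDUFA3, one of 172 nucleotides held 962 FPKM in heat shock 1 and another of the same length 952 FPKM in heat shock 2. FPKM divides by length, so that a short transcript has a large value for few fragments. Fragments were not counted but were estimated as FPKM times transcript length, summed and divided by 1 length per gene. On this estimate, heat shock 2 of NDUFA1 stood at 605 scaled FPKM beside 189 to 211 in the other libraries. Control 1 of NDUFB8 stood at 280 beside 118 to 127. Heat shock 1 and 2 of NDUFA3 stood at 543 and 620 beside 338 to 378. The values came closer to the other libraries but stayed the highest of their gene. The estimate may be inexact for very short transcripts, so the remaining excess is not shown to be one of fragments. Among the 438 values of the 73 genes with a mean of 10 FPKM or more, 13 were over 2 times the median of their gene after scaling. All 13 had more than 50% of the value from assembled transcripts shorter than the longest annotated one, as had 53 values in all. They fell in 10 genes (NDUFA1, NDUFA3, NDUFA11, NDUFB1, NDUFB8, NDUFS3, NDUFS8, SDHB, COX7A2L and ATP5O), 3 in control and 10 in heat shock libraries. The 361 values with no such transcript ran from 0.316 times the median of their gene, in control 3 of ATP5B, to 1.30 times. The assembled transcripts are part of the summed value, so a high value and a high share are not independent of each other.

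**Figure D4:**
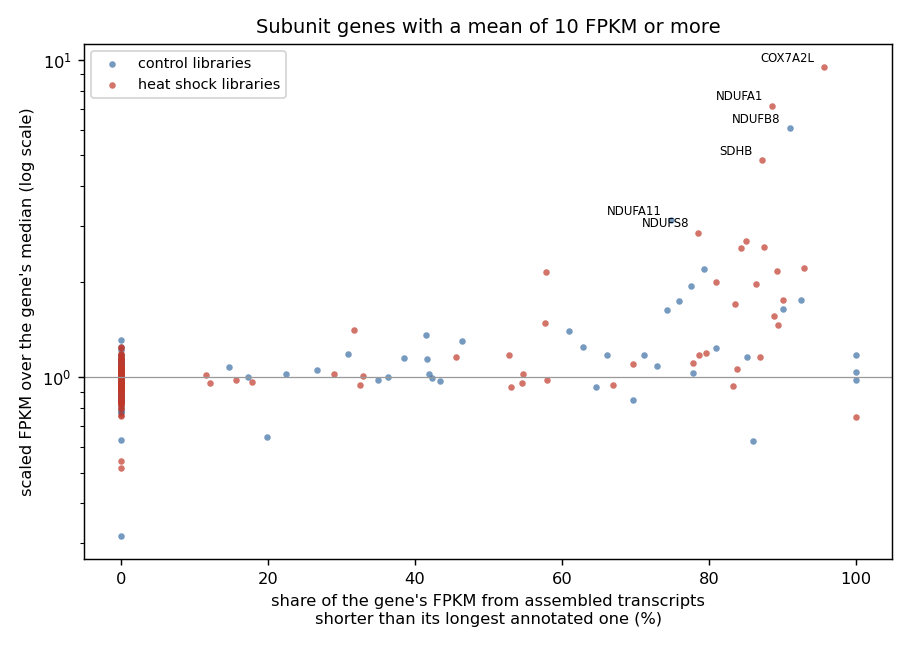
Scaled FPKM over the median of the gene (log axis) against the share of its FPKM that came from assembled transcripts shorter than the longest annotated one, for 438 values of 73 genes. Each point is 1 gene in 1 library, blue for controls and red for heat shock, and the highest are named. All 13 values over 2 lie at a share over 50%. The short transcripts are part of the summed value, so the axes are not independent.

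NDUFA9, a complex I subunit that holds NADPH, was the 1 member with all heat shock libraries below all controls. Its scaled FPKM was 11.0, 12.1 and 18.4 in control libraries and 8.86, 10.2 and 8.78 after heat shock. Control 3 was the highest, and 76.0% of its FPKM came from a transcript of 735 nucleotides. The difference was -0.50 ± 0.23 (SE) with an adjusted p of 0.913 (limma, Benjamini-Hochberg). The direction depended on which transcripts were summed. With annotated transcripts alone, the scaled values were 10.5, 3.33 and 4.54 against 8.88, 10.2 and 8.86, so that the groups overlapped and the mean was higher after heat shock. With fragments estimated over 1 length per gene, the scaled values were 10.9, 11.5 and 11.0 against 8.88, 10.2 and 8.73, and the groups did not overlap.

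Complex II, succinate dehydrogenase, links the tricarboxylic acid cycle to the chain and is made from nuclear genes alone. SDHB, its iron-sulfur subunit (hg19 chr1:17345225-17380665), had 32.4, 15.7 and 36.7 FPKM in control libraries and 71.4, 73.6 and 82.8 FPKM after heat shock. The groups did not overlap as deposited, but they did after scaling, with 34.2, 35.7 and 37.9 against 33.1, 31.4 and 168. Heat shock 3 alone was high, and 87.3% of its FPKM came from a single-exon transcript of 275 nucleotides. The scaled difference of SDHB was 0.63 ± 0.65 (SE). The membrane anchor SDHC had the lowest difference of the 4 genes, -0.068 ± 0.15 (SE), with scaled values of 10.2, 12.1 and 10.3 against 10.3, 10.1 and 10.5. The other anchor, SDHD, was low at 3.27, 3.48 and 3.74 against 3.63, 3.64 and 4.31 scaled FPKM, and the groups overlapped. SDHA, the flavoprotein subunit, had assembled transcripts in all 6 libraries and scaled values of 21.2, 15.8 and 44.0 against 18.8, 29.1 and 36.8. Its controls spanned the whole range of the heat shock libraries.

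In complex III, which passes electrons from ubiquinol to cytochrome c, UQCRH had the highest mean FPKM of all the subunit genes. It had 685, 318 and 762 FPKM in control libraries and 1738, 2635 and 362 FPKM after heat shock. It encodes the hinge protein, and its scaled difference was 0.23 ± 0.17 (SE). In heat shock 2, 57.7% of its FPKM came from an assembled transcript of 401 nucleotides. With annotated transcripts alone, UQCRH was above COX7C of complex IV in all controls and in heat shock 1. It was below COX7C in heat shock 2, at 1115 against 1694 FPKM, and in heat shock 3. UQCRHL, a near-identical copy of UQCRH, had 1.73 to 9.71 FPKM and the lowest difference of the complex, -0.38 ± 0.33 (SE). The split of reads between the copies is uncertain. CYC1, the heme-carrying cytochrome c1, had scaled values of 60.1, 61.6 and 58.0 in control libraries and 64.2, 61.2 and 107 after heat shock. Heat shock 3 was the high library, and 90.1% of its FPKM came from 2 short assembled transcripts.

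UQCRC2, a core protein of complex III (hg19 chr16:21964609-21994668), was the 1 member past an unadjusted p of 0.05. It had 12.4, 7.51 and 10.3 FPKM in control libraries and 34.1, 75.7 and 16.2 FPKM after heat shock. The scaled FPKM was 13.1, 17.1 and 10.7 in control and 15.8, 32.3 and 32.8 in heat shock libraries, with heat shock 2 and 3 high and heat shock 1 below control 2. The difference was 0.89 ± 0.33 (SE), with an unadjusted p of 0.0382 and an adjusted p of 0.913 (limma, Benjamini-Hochberg). In heat shock 2 and 3, 75.6% and 72.8% of the FPKM came from 2-exon transcripts of 812 and 923 nucleotides, beside an annotated length of 1674. With fragments estimated over 1 length per gene, the scaled values were 12.9, 19.0 and 10.6 against 17.7, 19.2 and 21.5, and the groups overlapped. With annotated transcripts alone the direction turned, at 12.5, 6.09 and 8.76 against 0, 4.36 and 6.31, where heat shock 1 was listed at 0.

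UQCRQ, a small subunit of complex III (hg19 chr5:132202319-132204536), had scaled values of 107, 112 and 111 in control libraries and 116, 121 and 112 after heat shock. The groups did not overlap, but control 2 and heat shock 3 differed by under 1 scaled FPKM. With annotated transcripts alone the scaled values were 102, 112.9 and 113.5 against 116, 121 and 112.9, and with fragments over 1 length per gene 105, 112 and 113 against 116, 122 and 111, and the groups overlapped in both. The difference was 0.083 ± 0.079 (SE), with a 95% interval from -0.11 to 0.28.

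Complex IV, cytochrome c oxidase, hands the electrons to oxygen, and 12 of its 17 genes were tested. COX7C was the most abundant, with 676, 297 and 682 FPKM in control libraries and 1459, 1694 and 334 FPKM after heat shock. After scaling it had 713, 675 and 705 against 677, 723 and 679, and the difference was -0.0090 ± 0.061 (SE). COX6A1, the gene from which one of the retro-elements studied with these data derives (hg19 chr12:120875893-120878545), had 122, 56.8 and 105 FPKM in control libraries and 247, 292 and 66.3 FPKM after heat shock. Its scaled FPKM was 128, 129 and 109 against 114, 125 and 135, the groups overlapped, and the difference was 0.028 with a 95% interval from -0.25 to 0.30. COX7A2L, which helps to join complexes III and IV, had the highest difference, 0.53 ± 1.03 (SE). Its scaled FPKM was 117, 44.6 and 60.0 in control libraries and 504, 40.1 and 46.6 after heat shock, and the high value of heat shock 1 held 95.7% of its FPKM in a transcript of 252 nucleotides. COX4I1, the regulatory subunit that binds ATP, varied with a single annotated transcript and no assembled one. Its scaled FPKM was 202, 185 and 116 in control libraries and 99.4, 181 and 209 after heat shock, low in control 3 and heat shock 1.

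Several complex IV subunits have a second form that is known from heart and muscle, lung or testis. The forms COX4I2 (lung), COX6A2 and COX7A1 (heart and muscle) and COX7B2 and COX8C (testis) were all under the minimum mean of 1 FPKM, and COX6B2 (testis) had at most 3.16 FPKM. NDUFA4L2, a form known to be induced by low oxygen, was listed at 0 in all 6 libraries, while its general form NDUFA4 had 13.9 to 71.5 FPKM. The general form COX6B1 had 83.3 to 518 FPKM, COX7A2 42.6 to 255, COX7B 156 to 943 and COX8A 24.1 to 166 FPKM. COX6A2 was listed at 0.892, 0.748 and 0.453 FPKM in the controls and at 0 in all heat shock libraries, and it entered no test. For COX4I2 the controls held 1.56, 2.46 and 0.671 FPKM, heat shock 3 held 1.06 FPKM, and the gene was listed at 0 in heat shock 1 and 2. COX7A1 had 3.55 FPKM in heat shock 3 and at most 0.578 FPKM elsewhere. In each of the 7 pairs the general form had the higher listed value in all 6 libraries. A value of 0 means only that no transcript was listed: for NDUFA4L2 the authors' pooled values were 0.930 FPKM in the control and 1.67 FPKM in the heat shock group.

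**Figure D5:**
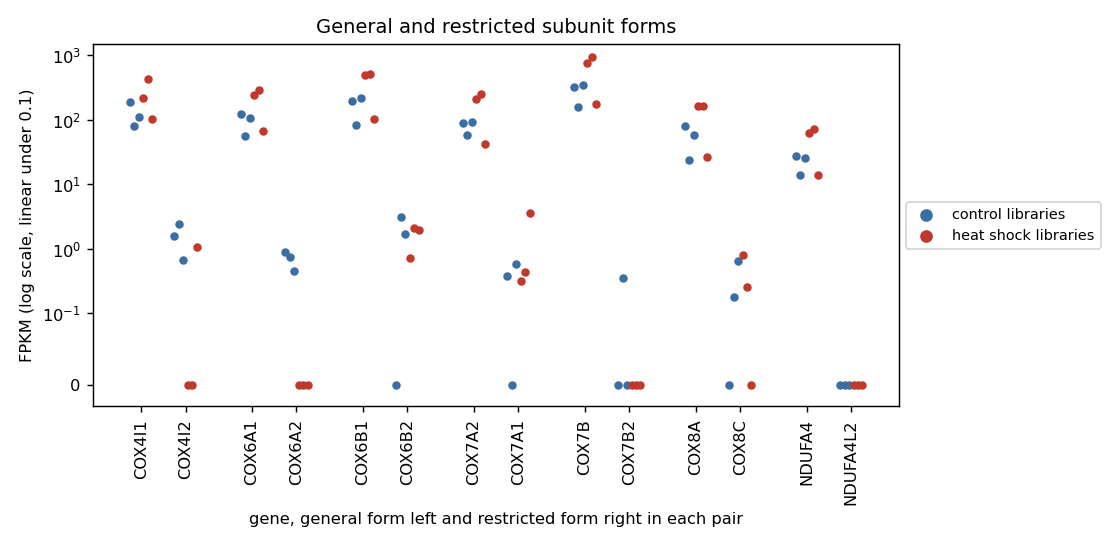
FPKM as deposited (log axis, linear under 0.1) of the general and the restricted form of 7 subunits in the 6 libraries, blue for controls and red for heat shock. Each point is 1 library. The general forms lie between 13.9 and 943 FPKM and the restricted forms between 0 and 3.55 FPKM.

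In complex V, the most abundant gene was ATP5I, subunit e of the membrane part, with scaled values of 356, 307 and 424 in control libraries and 368, 334 and 395 after heat shock. The groups overlapped, and the difference was 0.023 ± 0.14 (SE). The genes ATP5G1, ATP5G2 and ATP5G3 encode the same mature subunit c, which forms the rotor ring. ATP5G1 had 139, 55.4 and 130.2 FPKM in control libraries and 350.0, 388 and 59.5 FPKM after heat shock. ATP5G2 had 65.7, 25.4 and 61.2 against 147, 161 and 34.1 FPKM, and ATP5G3 had 16.2, 6.52 and 13.4 against 35.7, 33.3 and 6.80 FPKM. The order ATP5G1, ATP5G2, ATP5G3 held in every library. Their scaled differences were 0.13 ± 0.15, 0.12 ± 0.10 and -0.036 ± 0.15 (SE), none past the test.

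ATP5E, the epsilon subunit of the catalytic part (hg19 chr20:57603733-57607422), had the clearest separation of the complex. Its FPKM was 145, 68.1 and 148 in control libraries and 363, 406 and 83.4 after heat shock. After scaling, the controls were 153, 155 and 153 and the heat shock libraries 169, 174 and 169, and the groups did not overlap. The difference of 0.15 ± 0.067 (SE) had an adjusted p of 0.913 (limma, Benjamini-Hochberg), and its 95% interval ran from -0.015 to 0.32. In the authors' comparison ATP5E is joined at its locus with SLMO2 and the readthrough SLMO2-ATP5E. The split of reads between these names is uncertain. The catalytic beta subunit ATP5B had scaled values of 165, 161 and 51.0 in control libraries and 156, 165 and 162 after heat shock. Control 3 was low, and in that library an assembled transcript of 125 FPKM was grouped with both ATP5B and SNORD59A and was counted to neither. The highest difference of the complex, 0.76 ± 0.74 (SE), belonged to the readthrough name ATP5J2-PTCD1, which was listed at 0 in control 2. The lowest, -0.70 ± 0.67 (SE), belonged to ATP5L2, a rare relative of subunit g, at 0.415 to 2.27 FPKM.

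The genes that build and feed the complexes also gave 0 calls in both fits at an adjusted p under 0.05 (limma, Benjamini-Hochberg). The median scaled difference was -0.042 over 13 complex I assembly factors, -0.053 over 26 tested assembly factors of complexes II to V and -0.016 over 13 genes of the tricarboxylic acid cycle. It was -0.15 over 11 genes of ubiquinone synthesis and cytochrome c and -0.25 over 13 tested regulators of mitochondrial genes. COQ4, needed for ubiquinone synthesis, was the 1 gene of these lists past an unadjusted p of 0.05 in the scaled fit, in which 0.73% of all genes were higher at that level, with scaled values of 10.7, 13.7 and 12.3 in control libraries and 30.2, 23.3 and 13.9 after heat shock. Among the regulators, TFAM, which packs and transcribes mitochondrial DNA, had 6.10, 5.28 and 5.37 against 5.37, 5.74 and 4.94 scaled FPKM, and the groups overlapped. The GABP subunit GABPA was listed at 0 in all 6 libraries, and NRF1 in 2 of them. Here too a value of 0 means only that no transcript was listed under that name, not that the RNA was absent. The 13 subunits made from mitochondrial DNA were not analysed here. As a contrast, 11 heat shock genes had a median scaled difference of 0.35, with 5 higher at an unadjusted p under 0.05, against 0.73% of all genes, and 0 called.

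The extremes of these lists spanned a wider range than the medians. The lowest scaled differences were those of IDH3G, an isocitrate dehydrogenase subunit, at -1.92 ± 1.53 (SE), and of the nuclear receptor ESRRA, at -1.81 ± 1.01 (SE). IDH3G was listed at 0 in heat shock 3 and ESRRA at 0 in heat shock 2. The complex I assembly factors ran from NDUFAF1 at -0.89 to ECSIT at 0.30 and those of complexes II to V from COX19 at -0.73 to C11orf83 at 0.50. COQ6 was lowest of the ubiquinone genes at -0.79, TFB1M highest of the regulators at 0.32 and SUCLG2 highest of the tricarboxylic acid cycle at 0.34. HSPD1, the mitochondrial chaperonin, was lowest of the heat shock genes at 0.036 and DNAJB1 highest at 2.51.

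The deposited comparison table gives 1 pooled FPKM for each group. For the 76 tested members alone at their locus, the authors' pooled heat shock value was above every heat shock library in 72, and their pooled control value was above every control library in 58. The median ratio of the pooled value to the mean of the 3 libraries was 1.35 in the control group and 2.86 in the heat shock group. For COX6A1 the authors' pooled values were 131 and 605 FPKM, beside 122 FPKM in the highest control library and 292 FPKM in the highest heat shock library.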

How the data were processed

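RNA of 3 control and 3 heat shock samples was analysed, with groups taken from the labels. Per the submitters' processing notes, the authors used FastQC 0.10.1, Trimmomatic 0.3.0, TopHat2, Cufflinks 2.0.2 and Cuffdiff with hg19. The deposited assemblies give each transcript an FPKM by Cufflinks with no scaling between libraries stated, and the authors deposited a table with 1 pooled FPKM a group. Its fold changes, p-values and q-values hold the authors' own comparison and were not used.

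FPKM was summed per gene over annotated transcripts and assembled transcripts grouped with that gene alone. Pairs of near-identical genes share reads in a way these values do not show, and RefSeq names 206 pseudogenes after 50 of the members. Genes had to average 1 FPKM or more to be tested, which left 13021. The test was limma 3.58.1 (R 4.3.3; lmFit, eBayes with a trend) with Benjamini-Hochberg adjustment, on log2(FPKM + 1), a scale that understates changes of low genes. It was run on the deposited values and on values over the common factor. The second fit assumes that the median abundant gene did not move.

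The members, lists and tests were chosen with earlier results of these data known. Named were, in each complex, the members with the highest mean and with the highest and lowest scaled difference, members called, COX6A1, isoform pairs, subunit c and SDH genes, CYC1, members joined with a neighbour or listed at 0, and the extremes of each list. Others are named for their values or for not overlapping. Alternatives were the pseudocount, the minimum, annotated transcripts alone, no trend, a replicate block, other factors, TPM and leaving out libraries. A further 2 were added after the values were seen: fragments over 1 length per gene (FPKM times length, summed, over the longest annotated length) and leaving out control 2 and heat shock 3 together.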

Additional observations from a re-analysis of the deposited data

How the results depend on the processing

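The count of called members stayed at 0 for FPKM as deposited and for scaled FPKM under every alternative but 1, including each library left out in turn. The exception was added after the values were seen: without control 2 and heat shock 3, 58 members were called as deposited, while the scaled count stayed at 0. The median difference as deposited ran from 0.468 to 1.563 when 1 library was left out, and was 0.132 after rescaling to TPM. The scaled median ran from -0.008 to 0.030 when 1 library was left out. With median-of-ratios factors over the tested genes above 0 FPKM in every library, it was 0.286, and the cause was not tested. Without control 2 and heat shock 3 it was 0.043.

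Whether the replicate numbers pair the samples is not known. Same-numbered libraries had correlations of deviations of 0.027, -0.33 and -0.38 as deposited, which show no pairing but cannot exclude one. With the replicate block, 0 members were called in either fit, and the lowest adjusted p of a member was 0.875 as deposited (limma, Benjamini-Hochberg). The block raised the calls over all genes from 3 to 17 as deposited. Annotated transcripts alone gave a scaled median of -0.005 and fragments over 1 length per gene gave 0.005. Of 1519 values of named genes under alternatives, 130 had another sign than reported and 24 passed the threshold, all of them as deposited and without control 2 and heat shock 3. The 6 libraries limit the precision, and depth is known only in relative terms.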

Other observations

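A further 3 names that match the prefixes were left out of the members. The pseudogene UQCRBP1 was listed at 14.9 FPKM in control 3, at 35.7 FPKM in heat shock 1 and at 0 in the other 4 libraries. The pseudogene ATP5EP2 had 0.000704 to 2.11 FPKM, and the antisense name NDUFB2-AS1 was listed at 0 throughout. Assembled transcripts grouped with both NDUFA7 and its neighbour CD320 held 49.0 FPKM in heat shock 2, 5.43 FPKM in control 2 and 4.46 FPKM in heat shock 3, and were counted to neither gene.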
